A study of Cavia porcellus with 10 samples.

Results

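The genes described here drive and restrain cell division: 42 cell cycle and DNA replication genes, chosen by name and taken from the lines of the count table whose symbol equals the name, ignoring case. Of these, 41 were found among 17642 lines that carry a symbol, and all 41 had enough reads to be tested among 14683 genes. CDKN1C was not analysed here. For RRM1, CCNB1 and CDC20, each on more than 1 line, the line with the highest mean was used. Symbols are spelled as the table spells them.

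RNA came from the sclera, the tough collagenous wall of the eyeball, of male guinea pigs (Cavia porcellus) aged 2 to 3 weeks. In the myopia group lenses were worn over both eyes to make them nearsighted (lens-induced myopia), and the control group was untreated. Each group had 5 eyes, with 1 library per eye; whether 2 eyes came from 1 animal is not labelled, and p-values take the spread between eyes as their error. Totals were 32309258 to 34055139 counts per myopia library and 32568123 to 35430797 per control library, of which the member genes held 49518 to 65320. Levels are given in CPM, the read count of a gene set against the size of its library, with TMM factors that make the typical gene equal between libraries; these factors were 1.11 to 1.25 in myopia and 0.777 to 0.968 in control. The first principal component held 77.1% of the variance, and on it control libraries 4 and 5, at -49.7 and -24.6, lay nearer to the myopia libraries (61.5 to 72.5) than control libraries 1 to 3 did (-94.6 to -81.5). Calls of member genes that end or appear without control libraries 4 and 5 are given as such. In whole tissue, fewer dividing cells and less RNA per cell cannot be told apart.

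A cell that commits to division passes from G1 to S phase when D-type and E-type cyclins, bound to their kinases, phosphorylate the retinoblastoma protein RB1 and release E2F transcription factors. E2F then drives genes of DNA replication: the MCM helicase that opens the double helix, the sliding clamp PCNA, and the enzymes that make deoxynucleotides. Genes of mitosis are switched on later, in G2, and act on chromosome condensation, the spindle, the checkpoint that holds anaphase, and cytokinesis. The scleral fibroblast is a slowly dividing cell, and growth of the eye also depends on the matrix it lays down.

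The cell cycle genes did not move as a block. Of the 41 tested, 12 were higher in myopia and 19 lower, and 10 did not pass (edgeR quasi-likelihood test, Benjamini-Hochberg adjusted p under 0.05 over all genes tested). Among all genes tested 71.9% were called, 36.9% as higher and 35.1% as lower, so calls as such were the rule in this comparison. The member shares were 29.3% and 46.3%. When a call also had to reach a log2 fold change of 1 in either direction, 8 members were higher and 8 lower, against 19.6% and 12.6% of all genes. In 23 of the 41 members the ranges of the 2 groups were fully separate, against 57.8% of all genes.

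The scale matters for direction. Scaling by total count alone gave all genes a median log2 fold change of 0.47, in place of 0.03. Then 15 members were higher and 8 lower, against 52% and 18.7% of all genes. Higher and lower below are on the TMM scale, and a member whose sign or call ended with total count scaling is named as such. Calls of 18 members stayed on the same side under each of the 20 alternatives run. They are CDK6, Ccne2, RRM1, Hells, KIF11, SMC2, SMC4, MKI67, CDKN1B and RB1, higher in myopia, and CCND3, MCM2, MCM5, RRM2, CCNB2, CDC20, AURKB and BIRC5, lower.

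**Figure D1:**
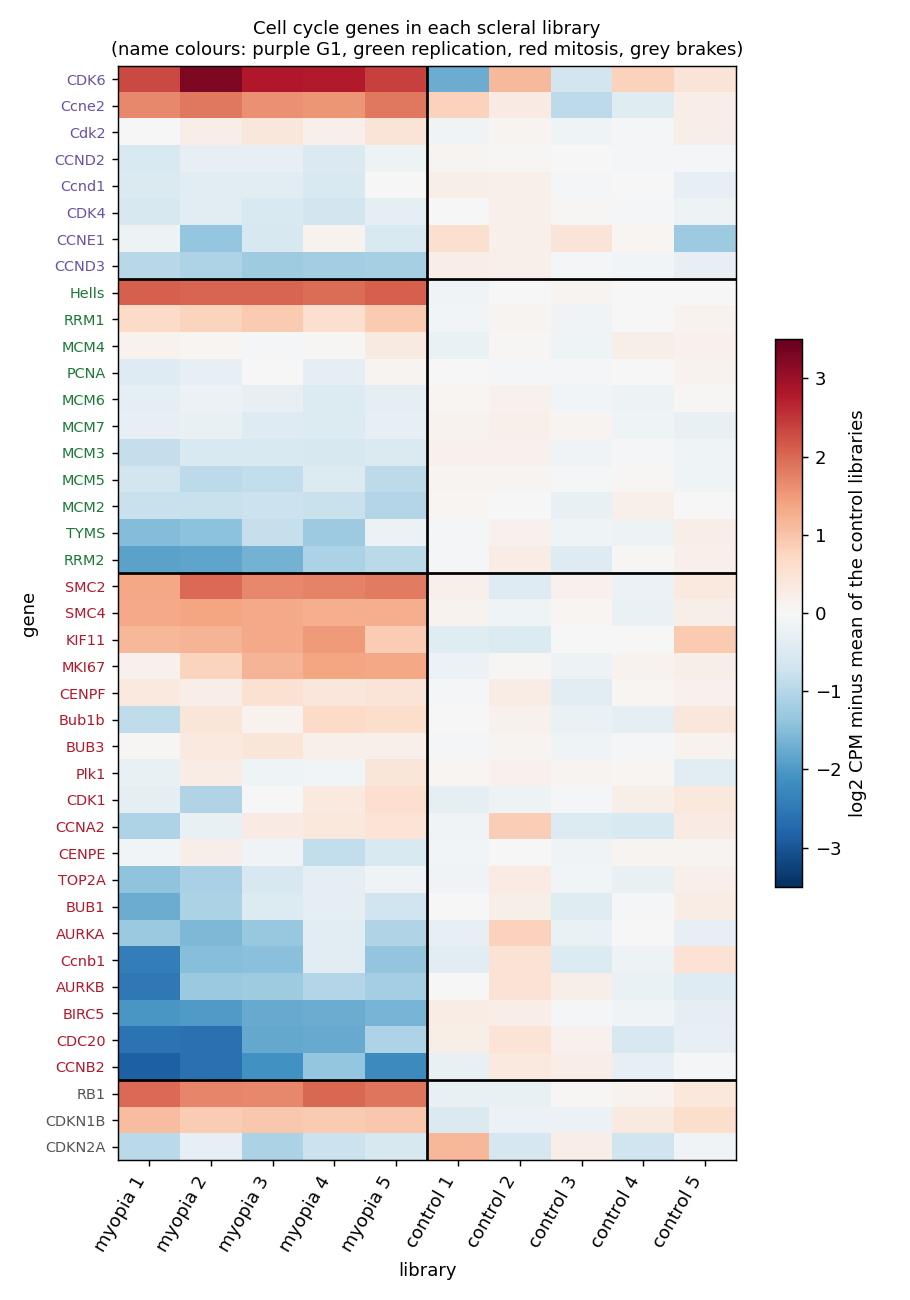
Level of each of the 41 genes in each library, as log2 CPM minus the mean of the control libraries (colour), with myopia libraries left and control libraries right, grouped by role. Red and blue rows stand side by side within replication and within mitosis; on a total count scale Ccnd1, CCND2, MCM6, MCM7, PCNA, CCNA2, CDK1 and CENPE change sign.

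Most replication genes were lower in myopia on the TMM scale: 7 of 11 fell (63.6%) and 2 rose (18.2%), with a median of -0.36 (log2 fold change). Of all genes 35.1% fell and 36.9% rose. With total count scaling 3 of the 11 fell and 3 rose, with a median of 0.10. On that scale 18.7% of all genes fell and 52% rose, and the median of all genes was 0.47. MCM2 to MCM7 encode the ring of the replicative helicase. MCM2 had 10.4, 10.5, 10.7, 10.5 and 8.82 CPM in myopia, against 19.0, 18.0, 15.1, 20.4 and 18.0 CPM in control (libraries 1 to 5 in each group, here and below), a log2 fold change of -0.83 ± 0.11 (SE; adjusted p = 2.18e-05). MCM5 had 30.2, 24.9, 25.9, 33.4 and 24.8 CPM in myopia, against 49.8, 50.4, 44.9, 48.2 and 42.1 CPM in control, a log2 fold change of -0.76 ± 0.10 (SE; adjusted p = 2.15e-05). For both genes every myopia library lay below every control library, and the calls held with total count scaling.

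MCM3 had 12.7, 15.6, 15.5, 15.4 and 15.9 CPM in myopia, against 25.3, 25.0, 20.8, 22.0 and 20.2 CPM in control, a log2 fold change of -0.60 ± 0.11 (SE; adjusted p = 0.000219). MCM7 had 52.9, 54.6, 47.9, 47.0 and 53.5 CPM in myopia, against 71.4, 73.5, 70.1, 58.2 and 54.9 CPM in control, a log2 fold change of -0.36 ± 0.10 (SE; adjusted p = 0.00512). The groups did not overlap for either gene, but for MCM7 myopia library 2 and control library 5 nearly met. MCM6 averaged 26.7 ± 1.85 CPM in myopia and 33.4 ± 3.0 CPM in control (mean ± SD, n = 5 each), a log2 fold change of -0.32 ± 0.09 (SE; adjusted p = 0.00582). With total count scaling MCM6 and MCM7 turned to 0.12 and 0.10 (adjusted p = 0.225 and 0.259), and MCM3 no longer passed (-0.14, adjusted p = 0.233). MCM4 averaged 21.6 ± 2.06 CPM in myopia and 20.2 ± 2.58 CPM in control and did not pass, at 0.10 ± 0.11 (SE; adjusted p = 0.433); with total count scaling it passed as higher (0.54, adjusted p = 0.00393). Thus 5 of the 6 ring subunits were lower on the TMM scale and MCM4 was not, and 2 of the 6 (MCM2 and MCM5) were lower on both scales.

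The deoxynucleotide enzymes split. Ribonucleotide reductase is built from a large subunit, RRM1, and a small subunit, RRM2, whose protein is made and destroyed with S phase. RRM2 had 1.53, 1.55, 1.80, 2.65 and 3.0 CPM in myopia, against 5.60, 6.87, 4.23, 6.0 and 6.58 CPM in control, a log2 fold change of -1.47 ± 0.24 (SE; adjusted p = 8.93e-05). RRM1 had 41.0, 44.7, 48.7, 38.5 and 49.1 CPM in myopia, against 23.9, 27.7, 23.8, 26.0 and 28.1 CPM in control, a log2 fold change of 0.78 ± 0.10 (SE; adjusted p = 8.97e-06). The groups were fully apart for both genes, in opposite directions, and both calls held under each alternative. TYMS, thymidylate synthase, averaged 1.67 ± 0.731 CPM in myopia and 3.31 ± 0.420 CPM in control, a log2 fold change of -0.99 ± 0.28 (SE; adjusted p = 0.00592). The highest TYMS level in myopia, 2.87 CPM in library 5, came close to the lowest in control, 2.89 CPM in library 4, and the call ended with total count scaling (-0.54, adjusted p = 0.113).

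Hells, a chromatin remodeller that helps maintain DNA methylation in dividing cells, had the highest log2 fold change of the replication genes. It had 21.7, 21.0, 20.7, 19.6 and 21.5 CPM in myopia, against 4.66, 5.0, 5.43, 5.05 and 5.11 CPM in control, a log2 fold change of 2.05 ± 0.10 (SE; adjusted p = 3.13e-08). Values were tight within both groups. PCNA, the sliding clamp of DNA polymerase, had 37.8, 43.1, 53.2, 41.4 and 55.4 CPM in myopia, against 52.5, 50.2, 49.6, 52.5 and 56.5 CPM in control. Its groups overlapped and it did not pass, at -0.18 ± 0.11 (SE; adjusted p = 0.155), with 0.26 under total count scaling (adjusted p = 0.0765).

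The mitosis genes went both ways: on the TMM scale 8 of 19 fell (42.1%) and 6 rose (31.6%), with a median of -0.04 (log2 fold change). Of all genes 35.1% fell and 36.9% rose. With total count scaling 4 of the 19 fell and 7 rose, with a median of 0.42, beside 18.7% and 52% of all genes. On the TMM scale the range ran from -2.23 for CCNB2 to 1.72 for SMC2. The genes that fell include the B-type cyclins, an activator of the anaphase-promoting complex, and the Aurora kinases with survivin. Of these, the calls of Ccnb1 and AURKA ended with total count scaling. The genes that rose include condensin subunits, a spindle motor and the proliferation marker MKI67.

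BIRC5 (survivin) and AURKB (Aurora B kinase) belong to the chromosomal passenger complex, which corrects spindle attachment. BIRC5 had 3.01, 3.13, 3.64, 3.72 and 4.0 CPM in myopia, against 15.2, 14.7, 12.2, 11.5 and 10.1 CPM in control, a log2 fold change of -1.86 ± 0.16 (SE; adjusted p = 6.34e-07). AURKB had 0.909, 2.14, 2.26, 2.65 and 2.32 CPM in myopia, against 5.33, 7.72, 6.28, 4.56 and 3.92 CPM in control, a log2 fold change of -1.43 ± 0.28 (SE; adjusted p = 0.000444). In both genes all myopia libraries were below all control libraries. AURKA, the Aurora kinase of the centrosome, averaged 1.27 ± 0.466 CPM in myopia and 2.87 ± 1.13 CPM in control, a log2 fold change of -1.17 ± 0.31 (SE; adjusted p = 0.00427), and the call ended with total count scaling (-0.70, adjusted p = 0.071).

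CCNB2 and Ccnb1 encode B-type cyclins, the partners of CDK1 at entry into mitosis. CCNB2 had 0.468, 0.564, 0.821, 1.45 and 0.764 CPM in myopia, against 3.12, 4.83, 4.47, 3.08 and 3.63 CPM in control, a log2 fold change of -2.23 ± 0.31 (SE; adjusted p = 2.62e-05). Ccnb1 had 0.546, 1.10, 1.10, 2.40 and 1.19 CPM in myopia, against 2.45, 4.55, 2.25, 2.82 and 4.53 CPM in control, a log2 fold change of -1.39 ± 0.36 (SE; adjusted p = 0.00371). Myopia library 4 was the highest of its group for both cyclins, and for Ccnb1 it overlapped the control range. Reads were few: CCNB2 had 18 to 59 reads per myopia library and 79 to 137 per control library. Ccnb1 had 21 to 98 reads per myopia library and 62 to 141 per control library. The Ccnb1 call ended with total count scaling (-0.93, adjusted p = 0.0504).

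CDC20, which activates the anaphase-promoting complex, had 1.35, 1.32, 2.36, 2.45 and 3.95 CPM in myopia, against 9.70, 11.6, 9.29, 5.71 and 6.91 CPM in control, a log2 fold change of -1.91 ± 0.30 (SE; adjusted p = 7.79e-05). The groups were apart. CDK1, the kinase of mitosis, had 1.38, 0.817, 1.74, 2.25 and 2.66 CPM in myopia, against 1.38, 1.55, 1.67, 2.03 and 2.31 CPM in control. Its groups overlapped and the mean difference was near 0, at -0.02 ± 0.32 (SE; adjusted p = 0.965), with a sign that depended on which library or scale was used.

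TOP2A, the topoisomerase that untangles sister chromatids, had 6.96, 8.31, 12.6, 14.5 and 16.9 CPM in myopia, against 17.1, 22.3, 17.3, 15.5 and 20.8 CPM in control. Myopia libraries 1 and 2 were the lowest and library 5 overlapped the control range; the log2 fold change was -0.65 ± 0.22 (SE; adjusted p = 0.0156), and the call ended with total count scaling (-0.20, adjusted p = 0.484). BUB1, a spindle checkpoint kinase, averaged 0.962 ± 0.352 CPM in myopia and 1.73 ± 0.315 CPM in control, a log2 fold change of -0.84 ± 0.32 (SE; adjusted p = 0.0287). Its call ended with total count scaling (-0.39, adjusted p = 0.309), without control libraries 4 and 5 (-0.76, adjusted p = 0.0968), and when single libraries were left out. Without control 1, control 2 or control 5 its values were -0.82, -0.78 and -0.75 (adjusted p = 0.0509, 0.0648 and 0.0676). Without myopia 1 or myopia 2 they were -0.67 and -0.77 (adjusted p = 0.0585 and 0.0592).

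SMC4 and SMC2 form the ATPase core of condensin, which compacts chromosomes. SMC4 had 37.4, 39.3, 37.4, 36.4 and 35.8 CPM in myopia, against 16.2, 13.5, 15.6, 12.7 and 17.1 CPM in control, a log2 fold change of 1.31 ± 0.10 (SE; adjusted p = 3.09e-07). SMC2 had 8.03, 12.5, 10.1, 10.5 and 11.2 CPM in myopia, against 3.51, 2.26, 3.45, 2.69 and 3.92 CPM in control, a log2 fold change of 1.72 ± 0.19 (SE; adjusted p = 2.93e-06). For both genes every myopia library lay above every control library. KIF11, a kinesin that pushes spindle poles apart, had 4.05, 4.14, 4.52, 5.12 and 3.37 CPM in myopia, against 1.30, 1.27, 1.78, 1.77 and 3.37 CPM in control, a log2 fold change of 1.15 ± 0.27 (SE; adjusted p = 0.00186). Control library 5 stood apart from the other control libraries for KIF11 and met the lowest myopia library.

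MKI67, which encodes the Ki-67 protein of dividing cells, had 4.21, 6.57, 8.60, 9.90 and 9.77 CPM in myopia, against 3.27, 3.91, 3.35, 4.10 and 4.34 CPM in control, a log2 fold change of 1.04 ± 0.23 (SE; adjusted p = 0.000972). Myopia library 1 lay within the control range and the other myopia libraries above it. CENPF, a kinetochore protein, had 9.30, 8.68, 10.7, 9.77 and 10.2 CPM in myopia, against 7.02, 8.74, 5.56, 7.74 and 8.16 CPM in control, a log2 fold change of 0.38 ± 0.14 (SE; adjusted p = 0.0278). Its groups overlapped narrowly, between myopia library 2 and control library 2. Leaving out control 3 ended the CENPF call (0.31, adjusted p = 0.0582), as did leaving out myopia 3 (0.35, adjusted p = 0.0648) and myopia 5 (0.37, adjusted p = 0.0556).

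BUB3, a checkpoint protein, averaged 53.9 ± 5.68 CPM in myopia and 45.8 ± 3.56 CPM in control, a log2 fold change of 0.24 ± 0.09 (SE; adjusted p = 0.0351). That call ended with RLE factors (0.21, adjusted p = 0.0539) and with DESeq2 (0.21, adjusted p = 0.0514). Without control 1, control 3 or control 4 BUB3 stood at 0.24, 0.21 and 0.24 (adjusted p = 0.0535, 0.074 and 0.0564). Without myopia 2 or myopia 3 it stood at 0.21 and 0.19 (adjusted p = 0.0795 and 0.0965). The members that did not pass were CDK1, CCNA2, Bub1b, Plk1 and CENPE. CCNA2, the cyclin of S and G2, stood at -0.04 ± 0.35, and the checkpoint kinase gene Bub1b at 0.27 ± 0.29 on the log2 scale. Plk1, the Polo-like kinase, stood at 0.04 ± 0.15; with total count scaling it passed as higher (0.50, adjusted p = 0.00758). CENPE, a kinesin of the kinetochore, stood at -0.24 ± 0.18.

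**Figure D2:**
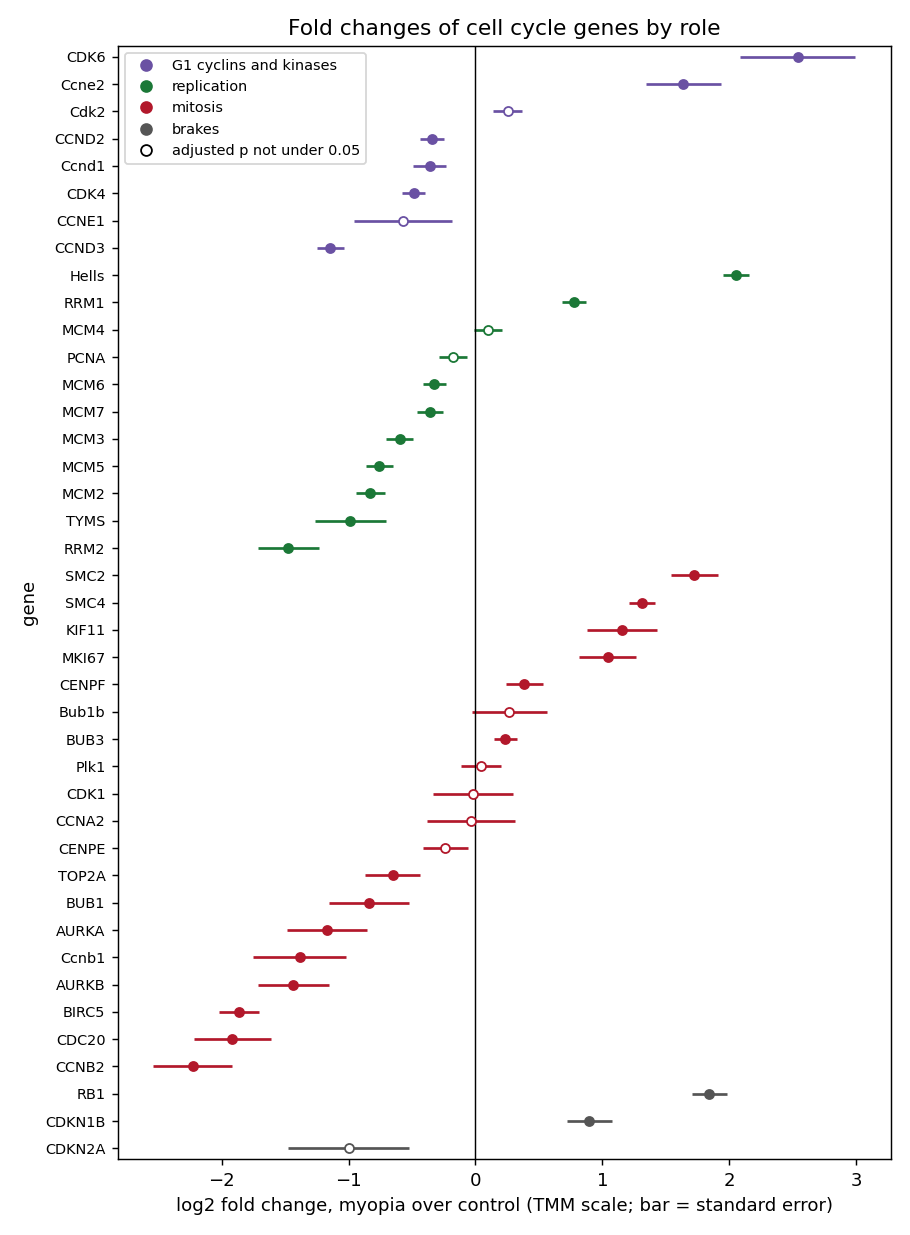
Log2 fold change of each gene, myopia over control, on the TMM scale (points) with its standard error (bars), coloured by role; open points did not pass an adjusted p of 0.05. Replication genes lie mostly left of 0 apart from Hells, RRM1 and MCM4 (open point), while mitosis genes spread from -2.23 to 1.72. With total count scaling the sign turns for the genes named as doing so in the heat map caption.

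**Figure D3:**
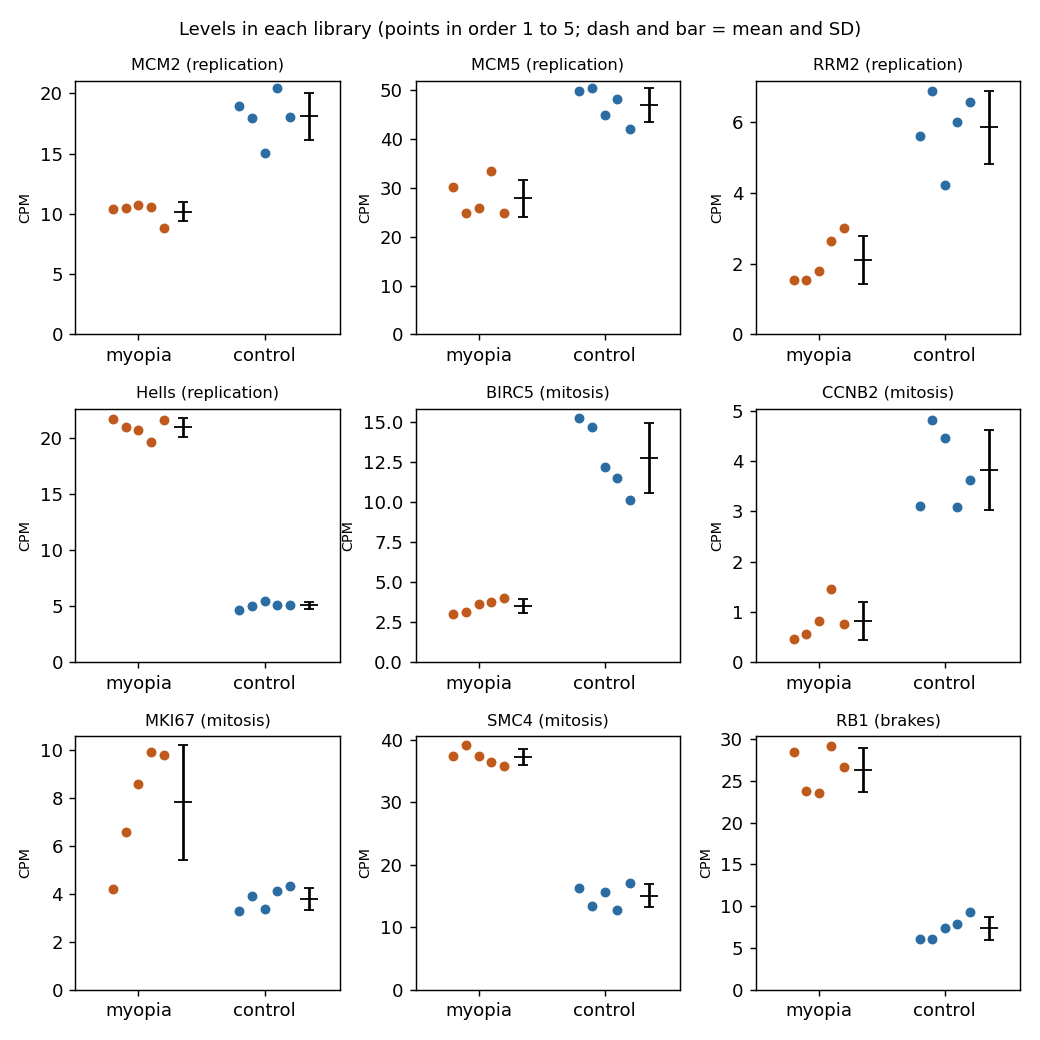
CPM in each library for 9 genes whose calls held under each alternative, myopia left and control right, with mean and SD (n = 5). Groups are apart in 8 panels, and in the MKI67 panel myopia library 1 lies within the control range.

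Replication and mitosis genes were set side by side by their medians. For each library the median over a class was taken of log2 CPM minus the control mean of each gene. The replication median lay between -0.47 and -0.27 in the myopia libraries and between -0.12 and 0.10 in the control libraries, and the groups did not overlap. The mitosis median was -0.88 in myopia library 1 and -0.25 to 0.19 in the other myopia libraries, against -0.13 to 0.21 in control. Myopia library 1 held the lowest value of its group in 12 of 19 mitosis genes and in 4 of 11 replication genes. The summed CPM of the replication genes was 254.7 to 287 in myopia and 286 to 318 in control, and that of the mitosis genes 153 to 191 in myopia and 155 to 188 in control.

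The median fold change of replication genes was lower than that of mitosis genes by 0.32 on the log2 scale. No test was made of this difference between classes, and its size rested on single libraries. As replication minus mitosis it was -0.20 without control library 3, -0.20 without myopia library 5 and -0.21 without myopia library 4, and -0.43 without myopia library 1. Relative to the median of all genes, the replication median was -0.39 and the mitosis median -0.07 with TMM factors, and -0.38 and -0.05 with total count scaling. The mitosis median was 0.06 without myopia library 1, -0.17 without myopia library 5, -0.15 without control library 4, -0.14 without control library 3 and -0.12 without myopia library 4. Without control libraries 4 and 5 the medians were -0.47 for replication and -0.13 for mitosis. Leaving CCNA2, TOP2A and MKI67 out of the mitosis class gave a mitosis median of -0.13.

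**Figure D4:**
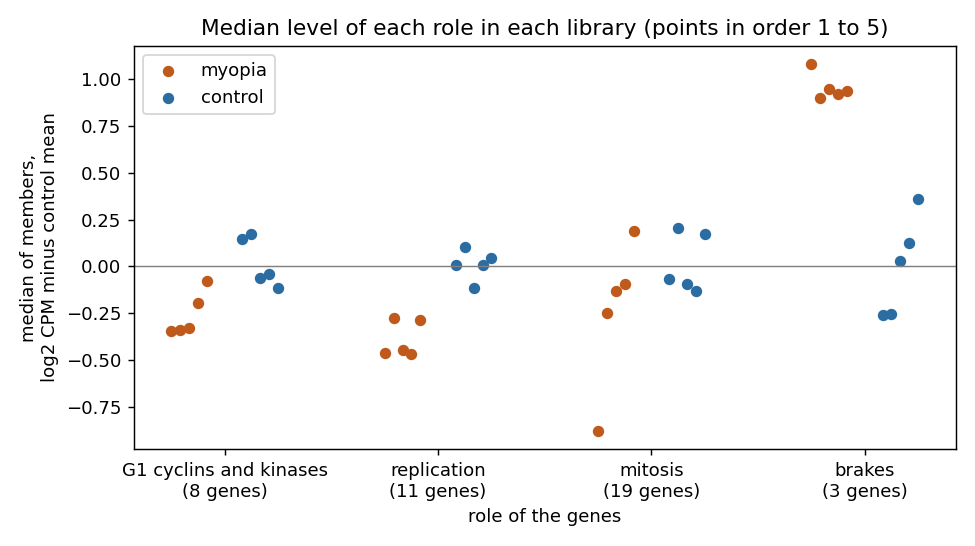
Median over the genes of each role in each library, as log2 CPM minus the control mean on the TMM scale, with the points of each group in order 1 to 5, myopia left of control. Replication medians of myopia lie below those of control, and mitosis medians overlap with myopia library 1 lowest at -0.88. Medians of the 3 brakes are higher in myopia, where each is the value of CDKN1B. Of the brakes, CDKN2A did not pass (log2 fold change -1.0). With total count scaling the median fold changes of the replication, mitosis and G1 genes are 0.10, 0.42 and 0.10.

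Of the 8 G1 cyclins and kinases, 4 fell (50%) and 2 rose (25%) on the TMM scale, beside 35.1% and 36.9% of all genes. With total count scaling 1 fell and 3 rose, beside 18.7% and 52% of all genes. The D-type cyclins, which couple growth signals to the cycle, were all lower on the TMM scale, and with total count scaling CCND3 alone of the 3. CCND3 had 121, 112, 100.3, 102 and 107 CPM in myopia, against 277, 271, 230.0, 224 and 194 CPM in control, a log2 fold change of -1.14 ± 0.11 (SE; adjusted p = 1.18e-06). CCND2 had 334, 395, 396, 339 and 427 CPM in myopia, against 508, 491, 478, 458 and 462 CPM in control, a log2 fold change of -0.34 ± 0.10 (SE; adjusted p = 0.00569). The groups were apart for both, with a wider gap for CCND3. Ccnd1 had 321, 346, 348, 314 and 459 CPM in myopia, against 525, 511, 430.2, 457 and 372 CPM in control, a log2 fold change of -0.36 ± 0.13 (SE; adjusted p = 0.0225). Its groups overlapped through myopia library 5. With total count scaling CCND2 and Ccnd1 turned to 0.11 and 0.10 (adjusted p = 0.269 and 0.423), while CCND3 stayed lower. Ccnd1 likewise did not pass with control 1 or control 2 left out, at -0.29 and -0.31 (adjusted p = 0.0615 and 0.06). The same held with myopia 1 or myopia 4 left out, at -0.32 and -0.32 (adjusted p = 0.0584 and 0.0556).

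CDK4, a kinase partner of the D cyclins, had 66.1, 73.5, 67.5, 62.2 and 77.1 CPM in myopia, against 98.0, 109, 98.7, 94.1 and 85.7 CPM in control, a log2 fold change of -0.49 ± 0.09 (SE; adjusted p = 0.000254). Its groups were apart, but with total count scaling it stood at -0.03 (adjusted p = 0.697). CDK6, the other partner, had 2.23, 4.42, 3.16, 3.14 and 2.37 CPM in myopia, against 0.0789, 0.951, 0.239, 0.755 and 0.578 CPM in control, a log2 fold change of 2.54 ± 0.46 (SE; adjusted p = 0.000217). It rested on 86 to 157 reads per myopia library and 2 to 27 per control library, and reached the read minimum in 5 myopia and 3 control libraries, so that it entered the test through the group in which it was higher. Ccne2, an E-type cyclin of the step into S phase, had 4.0, 4.45, 3.80, 3.65 and 4.45 CPM in myopia, against 2.17, 1.48, 0.614, 0.886 and 1.41 CPM in control, a log2 fold change of 1.64 ± 0.29 (SE; adjusted p = 0.000218). CDK6 and Ccne2 were each apart between the groups.

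CCNE1, the other E-type cyclin, averaged 1.02 ± 0.376 CPM in myopia and 1.53 ± 0.605 CPM in control and did not pass, at -0.57 ± 0.39 (SE; adjusted p = 0.198). Cdk2, the kinase partner of the E cyclins, averaged 28.5 ± 3.68 CPM in myopia and 23.9 ± 2.52 CPM in control and did not pass, at 0.25 ± 0.11 (SE; adjusted p = 0.0548). It passed as higher with upper quartile factors (0.32, adjusted p = 0.025), with total count scaling (0.69, adjusted p = 0.000539), with lines of a symbol summed (0.27, adjusted p = 0.0415), without control 5 (0.32, adjusted p = 0.0144), without myopia 1 (0.31, adjusted p = 0.0209) and without control libraries 4 and 5 (0.33, adjusted p = 0.0226).

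Of the 3 brakes tested, RB1 and CDKN1B rose on both scales. RB1, the retinoblastoma protein that holds E2F, had 28.5, 23.8, 23.5, 29.2 and 26.7 CPM in myopia, against 6.04, 6.06, 7.37, 7.91 and 9.28 CPM in control, a log2 fold change of 1.84 ± 0.14 (SE; adjusted p = 2.90e-07). CDKN1B, which encodes the CDK inhibitor p27, had 116, 103, 106, 104 and 106 CPM in myopia, against 38.5, 47.5, 47.7, 69.1 and 84.6 CPM in control, a log2 fold change of 0.90 ± 0.18 (SE; adjusted p = 0.00051). Both were apart between the groups, and both also differed within control, where libraries 4 and 5 were the highest, nearest to the myopia level. Without those libraries CDKN1B stood at 1.28 and RB1 at 2.03 (adjusted p = 5.07e-08 and 2.46e-08). CDKN2A, which encodes an inhibitor of CDK4, was read rarely, with 7 to 13 reads per myopia library and 8 to 28 per control library. It averaged 0.258 ± 0.0734 CPM in myopia and 0.523 ± 0.345 CPM in control and did not pass, at -1.0 ± 0.47 (SE; adjusted p = 0.073); it passed as lower without control 4 (-1.16, adjusted p = 0.0485) and without control libraries 4 and 5 (-1.29, adjusted p = 0.0481).

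Other genes of the pathway also moved in both directions. Of 53 further replication factors 23 were lower and 13 higher (median -0.13 on the log2 scale), beside 35.1% lower and 36.9% higher among all genes. POLD4 and Pold2, subunits of DNA polymerase delta, were lower, at -1.47 ± 0.14 and -1.41 ± 0.15 (log2 fold change ± SE, 5 eyes in each group). RFC1, the large subunit of the clamp loader, and CDC7, the kinase that fires replication origins, rose by 0.99 ± 0.10 and 1.97 ± 0.23. CDC7 averaged 7.37 ± 0.865 CPM in myopia and 1.88 ± 0.575 CPM in control. With total count scaling 14 of the replication factors were lower and 27 higher, beside 18.7% and 52% of all genes. The 4 named ones kept their direction and passed.

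Of 71 further mitosis genes tested 27 fell (38.0%) and 23 rose (32.4%), with a median of 0.04. These shares were close to those of all genes, 35.1% lower and 36.9% higher. With total count scaling 15 were lower and 30 higher, beside 18.7% and 52% of all genes. Without control libraries 4 and 5, 28 fell and 26 rose, with a median of 0.14, beside 34.7% and 38.3% of all genes. STAG2 and SMC3, subunits of the cohesin ring that holds sister chromatids together, rose by 1.65 ± 0.11 and 1.66 ± 0.14. SMC3 averaged 71.7 ± 4.90 CPM in myopia and 22.7 ± 5.66 CPM in control. CENPB, a centromere-binding protein, and UBE2S, a ubiquitin-conjugating enzyme of the anaphase-promoting complex, fell with log2 fold changes of -1.13 ± 0.10 and -1.20 ± 0.12. These 4 genes passed in the same direction on both scales.

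In the anaphase-promoting complex, the ubiquitin ligase that ends mitosis, 9 of 15 tested genes fell (60%) and 5 rose (33.3%), with a median of -0.63. Of all genes 35.1% fell and 36.9% rose. With total count scaling 6 fell and 6 rose, beside 18.7% and 52% of all genes. Anapc11, its catalytic RING subunit, and ANAPC16 fell with log2 fold changes of -1.45 ± 0.15 and -0.63 ± 0.07, while CDC27 and the scaffold ANAPC1 rose by 1.17 ± 0.12 and 0.62 ± 0.09. ANAPC16 no longer passed with total count scaling (-0.18, adjusted p = 0.0636).

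Among 23 E2F, DREAM and MuvB regulators, which switch cell cycle promoters on and off, 10 rose (43.5%) and 8 fell (34.8%). Their median was 0.36, and of all genes 36.9% rose and 35.1% fell. With total count scaling 12 rose and 4 fell, beside 52% and 18.7% of all genes. Without control libraries 4 and 5, 12 rose and 8 fell, with a median of 0.26, beside 38.3% and 34.7% of all genes. RBL2, a pocket protein related to RB1 that represses cell cycle genes in resting cells, averaged 94.3 ± 8.85 CPM in myopia and 30.7 ± 5.07 CPM in control, a log2 fold change of 1.62 ± 0.12. LIN9, of the MuvB core, rose by 2.12 ± 0.20. The 2 falls with the smallest p were E2F6 and E2F4, E2F family members known as repressors, at -0.68 ± 0.10 and -0.45 ± 0.08. With total count scaling E2F6 stood at -0.22 (adjusted p = 0.0419) and E2F4 at 0.002 (adjusted p = 0.984). Looked at after their values were seen, Foxm1, MYBL2 and E2F1 fell further, at -1.60 ± 0.36, -1.51 ± 0.39 and -1.10 ± 0.22. These 3 also passed as lower with total count scaling. Their relatives E2f3 and MYBL1 rose on both scales, by 0.94 ± 0.17 and 1.62 ± 0.26 with TMM factors.

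Among 23 other regulators of cyclin-dependent kinases 7 rose (30.4%) and 6 fell (26.1%), with a median of -0.13. Of all genes 36.9% rose and 35.1% fell. With total count scaling 14 rose and 3 fell, beside 52% and 18.7% of all genes. Cdkn1a, which encodes the inhibitor p21, averaged 33.9 ± 4.50 CPM in myopia and 74.4 ± 9.40 CPM in control, a log2 fold change of -1.13 ± 0.11. Cdkn2d, an inhibitor of CDK4 and CDK6, fell with a log2 fold change of -1.11 ± 0.12. CCNG1, a cyclin induced by p53, and CCNC, a cyclin of the Mediator complex, rose by 1.34 ± 0.14 and 1.12 ± 0.17. Among CDK inhibitors, Cdkn1a and Cdkn2d were thus lower and CDKN1B higher on both scales.

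**Figure D5:**
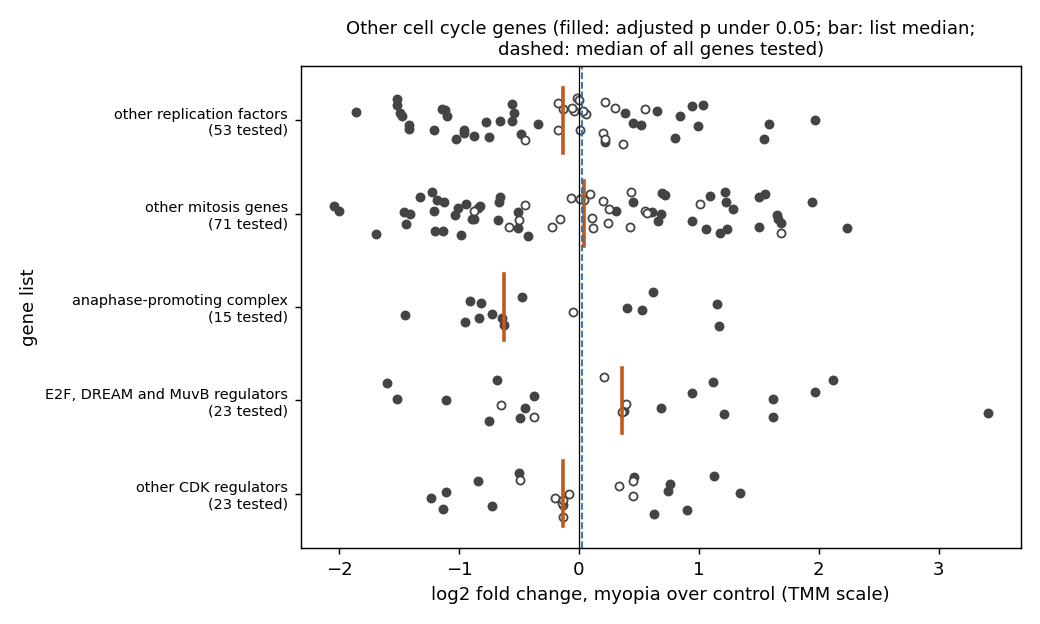
Log2 fold change, myopia over control on the TMM scale, of genes in 5 further cell cycle lists (points, filled where adjusted p is under 0.05), with the list median (bar) and the median of all genes tested (dashed line). Each list spreads to both sides of 0; with total count scaling the medians of the replication factors and CDK regulators turn to 0.31 and 0.32.

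Markers of other cells differed between the groups beside these genes. Of 10 markers of red cells and their precursors 9 were in the table, and their summed level was 160 to 511 CPM in myopia and 2554 to 10615 CPM in control; of 6 tested 5 fell, and TFRC rose. Of 14 leukocyte markers, 9 of 12 tested fell and 1 (PTPRC) rose, with summed levels of 1309 to 1659 CPM in myopia and 2197 to 4174 CPM in control. PTPRC averaged 20.5 CPM in myopia and 8.65 CPM in control. Cd74 made up most of the leukocyte sum, with means of 1154 CPM in myopia and 2540 CPM in control. Of 12 fibroblast markers, all tested, 5 fell and 3 (DCN, PDGFRA and FAP) rose. Their sum was 70058 to 96352 CPM in myopia and 125020 to 156820 CPM in control, so the defining genes of scleral fibroblasts were present in each group. Most of that sum came from COL1A1, with means of 35555 CPM in myopia and 82728 CPM in control, and COL1A2. COL1A2, with 30640 and 37560 CPM, did not pass. Endothelial markers summed to 995 to 1455 CPM in myopia and 1226 to 1487 CPM in control (3 of 10 higher, 2 lower). Skeletal muscle markers summed to 1598 to 3774 CPM in myopia and 2830 to 6958 CPM in control (0 of 12 higher, 7 lower). Pigment cell markers summed to 58.9 to 237 CPM in myopia and 152 to 439 CPM in control (3 of 10 higher, 3 lower). Retina markers summed to 301 to 839.9 CPM in myopia and 357 to 630.3 CPM in control (2 of 9 higher, 5 lower). With total count scaling the marker calls were 1 higher and 4 lower for red cells, 3 and 8 for leukocytes, 5 and 5 for fibroblasts, and 6 and 0 for endothelium. On that scale they were 0 higher and 3 lower for muscle, 3 and 1 for pigment cells, and 2 and 3 for retina. Of all genes 36.9% were higher and 35.1% lower on the TMM scale, and 52% and 18.7% with total count scaling. Without control libraries 4 and 5, muscle had 0 higher and 3 lower, and retina 2 higher and 2 lower. No marker in the table was at 0 in every library. The red cell regulator KLF1 had 0.162 ± 0.0879 CPM in myopia and 0.437 ± 0.377 CPM in control. The part of these cells in the fold changes of the cell cycle genes was not tested.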

How the data were processed

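The deposited table holds unnormalized whole-number counts, with 1 column per library and lines named by gene symbol, some symbols on more than 1 line; no column belongs to another sample. Per the labels' protocols, RNA was extracted with an RNeasy kit and libraries were made with a SMARTER mRNA kit. Aligner, counter, annotation and strandedness: not given in the sources used here. The submitters' processing notes name GRCm38 and mm10, which are mouse builds, so no coordinate, length or sequence is given, and a read where genes overlap, on either strand, may belong to any of them. Of 18079 lines, 437 carry no symbol (0.751% to 0.824% of counts in myopia, 1.18% to 1.69% in control) and were left out. Each line was its own gene.

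Groups were taken from the library titles. The test was edgeR 4.0.16 in R 4.3.3 (filterByExpr with minimum count 10 and minimum total 15, TMM, robust glmQLFit, glmQLFTest, group as the only term), with p-values adjusted by Benjamini-Hochberg across 14683 genes. It was also run on simulated data in which few genes changed, equally many up and down. Such data cannot check the choice of scale, on which direction depended here. Standard errors were obtained as the absolute log2 fold change over the root of F. Member genes, roles and lists were chosen with earlier results of these data known. Values per library are given for up to 5 genes per role and direction with the smallest p, and for MKI67, TOP2A, PCNA, MCM2, CDK1, CCNB1, CCND1, CDK4, CDKN1B and RB1; of each further list, up to 2 higher and 2 lower genes by smallest p. Alternatives were RLE, upper quartile and total count scaling, no filter, a stricter filter, DESeq2 1.42.0, limma-voom (limma 3.58.1), a replicate block, lines of a symbol summed, and libraries left out. Libraries of a group differed by more than sampling of reads (chi-square over its degrees of freedom, 18.1 to 117 for the pairs).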

Additional observations from a re-analysis of the deposited data

Results flagged for a closer look

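In 7 of 82 groups of 5 libraries 1 library lay far from the other 4, where chance gives about 1 in 20. Ccnd1 was high in myopia library 5, at 458.8 CPM against 314 to 348 CPM in the others, MCM2 low in myopia library 5, at 8.82 CPM against 10.4 to 10.7 CPM, and MCM3 low in myopia library 1, at 12.7 CPM against 15.4 to 15.9 CPM. CDKN1B was high in myopia library 1, at 116 CPM against 103 to 106 CPM. Among the control libraries, AURKA was high in library 2, at 4.86 CPM against 2.22 to 2.69 CPM. Plk1 was low in control library 5, at 10.5 CPM against 14.5 to 15.1 CPM, and KIF11 was high there, at 3.37 CPM against 1.27 to 1.78 CPM.

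A second line named Cdc20, with too few reads to be tested and not used for the member, averaged 0.427 CPM in myopia and 0.0521 CPM in control. It had 9 to 23 reads in each myopia library and 0 to 4 in each control library, the opposite direction to the line used for CDC20, which fell.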

How the results depend on the processing

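With total count scaling members lower in myopia numbered 8, the replication median was 0.10 and the mitosis median 0.42. That scaling also turned the log2 fold changes of Ccnd1 (0.10), CCND2 (0.11), MCM6 (0.12), MCM7 (0.10), PCNA (0.26), CCNA2 (0.42), CDK1 (0.43) and CENPE (0.19) positive; it moved the median of all genes from 0.03 to 0.47. Of its 10384 calls 73.5% were higher, against 51.2% of 10561 with TMM factors. Without control libraries 4 and 5 the replication median was -0.47, CDK1 was 0.22 and Plk1 -0.036. Upper quartile factors turned CCNA2 (0.037) and CDK1 (0.050), and summing the lines of a symbol turned CDK1 (0.0012). When single libraries were left out CCNA2 ranged from -0.17 to 0.25, CDK1 from -0.21 to 0.16 and Plk1 from -0.062 to 0.12; none of the 3 passed in those runs. The cause of these changes, other than total count scaling, was not tested. Counts of members called ranged from 10 to 13 higher and 17 to 20 lower when single libraries were left out. Over all members and alternatives 754 results kept direction and side of the threshold, 31 lost the call, 10 gained one and 24 changed sign. Same-numbered libraries did not deviate together (correlations -0.129 to 0.013 across genes). These values show no pairing by number but cannot exclude it, and the labels do not state it. With a replicate block in the edgeR test 10 members were higher, 17 lower and 10103 genes were called. Ccnd1, BUB1, BUB3 and CENPF did not pass with that block (adjusted p = 0.0574, 0.0545, 0.0748 and 0.0661). CDKN2A had too few reads to be tested under the stricter filter. Few reads limit CDK6 and Ccnb1, and likewise CCNB2, BUB1, AURKA, AURKB, TYMS, RRM2 and CDC20. The same holds for Ccne2, KIF11 and SMC2, which were higher in myopia. In myopia libraries CCNB2 had 18 to 59 reads, BUB1 18 to 55, AURKA 31 to 84 and AURKB 35 to 108. TYMS had 42 to 109, RRM2 55 to 114 and CDC20 47 to 150. In control libraries Ccne2 had 18 to 55 reads, KIF11 33 to 105 and SMC2 64 to 122. The mitosis genes lower in myopia together held 569 to 2060 reads per library, and those higher 1924 to 5178.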

Other observations

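The partners of the condensin core, SMC2 and SMC4, moved in both directions. These genes, looked at after their values were seen, include the condensin I subunits NCAPD2 and NCAPH, which were lower, at -0.43 ± 0.11 and -0.87 ± 0.15 (log2 fold change ± SE, 5 eyes in each group), and NCAPG, which did not pass (-0.23 ± 0.31). Of condensin II, NCAPD3 and NCAPG2 rose by 0.61 ± 0.13 and 0.45 ± 0.17, and NCAPH2 fell, with -0.89 ± 0.13. With total count scaling NCAPD2 stood at 0.03 (adjusted p = 0.788) and the other 4 called genes kept their calls. NCAPH averaged 5.40 ± 0.607 CPM in myopia and 9.90 ± 1.45 CPM in control (mean ± SD).

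Around the MCM ring, also looked at after their values were seen, Gins2, Gins4 and GINS1 of the GINS complex, which joins the helicase at the fork, were lower on both scales, at -1.51 ± 0.18, -1.49 ± 0.20 and -1.14 ± 0.22. CDC45, its partner, was lower at -1.10 ± 0.37 but not with total count scaling (-0.63, adjusted p = 0.136). GINS3 did not pass (0.01 ± 0.20), and with total count scaling it was higher (0.47, adjusted p = 0.0384). Of the same 53 replication factors, 13 of them higher and 23 lower, ORC3, ORC4, ORC6, MCM8, Mcm10 and DBF4 rose on both scales. With TMM factors they stood at 0.94 ± 0.12, 0.84 ± 0.13, 0.45 ± 0.14, 0.80 ± 0.19, 0.52 ± 0.19 and 1.58 ± 0.40. On that scale CDC6 and Cdt1 were lower, and ORC1, ORC2 and ORC5 did not pass. TK1, thymidine kinase of S phase, fell by 1.42 ± 0.20 on the log2 scale, and RRM2B, the small reductase subunit of resting cells, did not pass (0.03 ± 0.08; with total count scaling 0.48, adjusted p = 0.000785). INCENP, which scaffolds the passenger complex with AURKB and BIRC5, was lower, at -0.67 ± 0.15 (with total count scaling -0.21, adjusted p = 0.229), and CDCA8 of the same complex did not pass (-0.87 ± 0.44). A second line named Ccnb1 held 13 reads over the myopia libraries and 40 over the control libraries.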
